A study of Mus musculus with 98 samples.

Results

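The comparison concerns what remains different from wild-type muscle after the higher dose of a repeat-targeting morpholino, and what differs only after treatment. It sets 4 gastrocnemius libraries from HSALR homozygous mice, 7 days after EEV4-PMO at 30 mg/kg, against 4 gastrocnemius libraries from FVB/NJ mice given PBS, also at 7 days. These are 8 of the 98 libraries of the series and were chosen by the genotype, muscle, treatment and day in their titles. The 8 libraries of HSALR homozygous mice given PBS, from the same muscle at 7 days, show the untreated disease state. The dose cohort also holds EEV4-PMO at 15 mg/kg and the unconjugated PMO at 30 mg/kg, with 4 libraries each. The oligonucleotide is a (CAG)7 phosphorodiamidate morpholino, joined to a carrier named EEV4. It is absent from the PBS groups. Mouse age and sex, the route of injection and the nature of EEV4 are not given in the labels. Nothing states that libraries of a group come from separate mice, so p-values measure only the spread between these libraries.

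HSALR mice carry a human skeletal actin gene with a long CTG repeat in its untranslated tail, and the CUG repeat RNA made from it models myotonic dystrophy type 1 in muscle. The human actin promoter limits the repeat to skeletal muscle, so the mice do not model the disease in heart or brain. Repeat RNA holds muscleblind (MBNL) splicing factors in nuclear foci, and MBNL target exons then take the pattern of newborn muscle. A CAG oligonucleotide pairs with the repeat and can free MBNL. The FVB/NJ strain is the background of the line. A difference between the line and FVB that does not depend on the repeat cannot be told apart here from a disease difference.

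The exons shown here are short coding cassettes and are only some of those described below. Those of Tnnt3, Ryr1, Cpeb2, Mbnl1 and Neb still differed from FVB after treatment, whereas those of Mbnl2 and Cacna2d1 were near FVB and are shown for contrast. Sequences are the GENCODE vM21 exons (GRCm38), 5′ to 3′ on the transcript strand. Capitals mark the core motif bound by MBNL proteins, searched in its DNA forms. These are TGCT or TGCC with a first base of T, and with a first base of C they are CGCT or CGCC. They were searched on the transcript strand only, and overlapping matches are merged. The exons lie at chr7:142505288-142505299 on the plus strand, chr7:142507750-142507788 on the plus strand, chr7:29056234-29056248 on the minus strand, chr5:43268869-43268892 on the plus strand, chr3:60614683-60614736 on the plus strand, chr2:52161371-52161475 on the minus strand, chr14:120395712-120395765 on the plus strand and chr5:16322539-16322595 on the plus strand.
Tnnt3 12-base exon: cccccgaaccag
Tnnt3 39-base exon: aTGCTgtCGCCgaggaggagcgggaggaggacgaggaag
Ryr1 15-base exon: gcaggagacgtacag
Cpeb2 24-base exon: caaggagttatgggcgaagacgag
Mbnl1 54-base exon: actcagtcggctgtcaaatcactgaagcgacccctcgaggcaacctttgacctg
Neb 105-base exon: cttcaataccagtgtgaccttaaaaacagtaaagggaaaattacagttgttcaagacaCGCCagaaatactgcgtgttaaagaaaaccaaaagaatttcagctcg
Mbnl2 54-base exon: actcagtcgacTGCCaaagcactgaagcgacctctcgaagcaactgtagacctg
Cacna2d1 57-base exon: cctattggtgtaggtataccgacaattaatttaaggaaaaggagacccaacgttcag

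A motif was found in the Tnnt3 39-base, Neb and Mbnl2 exons and in none of the other exons shown. Other exons described below were searched but are not shown, and all held motifs. There were 19 in Ldb3 (186 bases), 6 in Nfix (123), 4 in Phka1 (177), 3 in Clcn1 (79) and 1 in Camk2b (75). Among tested exons within 20% of these lengths, the share with a motif ran from 60.4% (Camk2b) to 90.8% (Ldb3). Of all 21293 tested cassette exons with a sequence, 74.3% held one. Among tested exons within 20% of its length the share was 6.25% for the Tnnt3 12-base exon, 46.5% for the exons of Mbnl1 and Mbnl2 and 74.0% for the Neb exon. The Mbnl1 and Mbnl2 exons were identical at 46 of 54 positions. Matches describe these letters only, since flanking introns were not searched.

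The transgene fitted the labels. The hACTA1 entry had 17633, 19447, 19990.0 and 15644 TPM in the EEV4-PMO libraries, a lowest, median and highest of 17862, 29022 and 32980.2 TPM in HSALR PBS, and 73.9, 81.6, 73.01 and 71.6 TPM in FVB, which lacks the transgene. Set against the HSALR PBS mean, the group means were 63.9% for EEV4-PMO 30 mg/kg, 55.9% for EEV4-PMO 15 mg/kg and 105% for the unconjugated PMO. The difference between EEV4-PMO at 30 mg/kg and HSALR PBS passed an exact two-sided permutation test (p = 0.0121) although the ranges overlapped. The muscle label fitted its markers: 20 fast glycolytic fibre genes summed to 221162 to 262014 TPM in the EEV4-PMO libraries, 216656 to 244427 TPM in HSALR PBS and 269665 to 299094 TPM in FVB. HSALR PBS replicate 6 stood apart from the 7 others in several exons and in Actc1, and the percent left in those exons is also given without it. Read depth is not known from TPM or from percent spliced in (PSI, the share of transcripts that include an exon), and TPM values of a library always sum to a fixed total, so a rise of some genes lowers others.

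After EEV4-PMO at 30 mg/kg, few splicing differences from FVB still passed the test. Of 46521 events, 58 (0.125%) differed between EEV4-PMO and FVB, 27 with higher and 31 with lower PSI (limma on PSI, Benjamini-Hochberg adjusted p below 0.05 and a difference of at least 0.1). In HSALR PBS against FVB, 495 events (1.06%) differed, and EEV4-PMO against HSALR PBS gave 390 (0.838%). Of the 495, EEV4-PMO still differed from FVB in 39. In 263 it differed from HSALR PBS and not from FVB, and in 193 from neither, so those 193 are undecided. The 3 comparisons share libraries, and an event that missed the threshold was not thereby shown to equal FVB. HSALR PBS has 8 libraries and EEV4-PMO 4, so HSALR PBS against FVB can pass smaller differences, and the counts are not like for like. With 4 libraries per group in gastrocnemius at 4 days, HSALR PBS against FVB called 199 of 48700 events. PSI did not overlap between the EEV4-PMO and FVB libraries in 3.46% of all events and in 57 of the 58. The calls rest on a spread shared by all 24 libraries of the cohort. With the 8 compared libraries alone no event of 39665 passed (lowest adjusted p = 0.0576), while 2559 had an unadjusted limma p below 0.05.

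The 58 events fall into 3 kinds. For 39 in 14 genes, HSALR PBS differed from FVB in the same direction, and these are the residual differences. No event lay further from FVB than in HSALR PBS by the test, and none had crossed to the other side of FVB. Another 6 events in 5 genes differed from both FVB and HSALR PBS while HSALR PBS itself lay within 0.05 of FVB, and these are new with treatment. The last 13 could not be placed by these rules. Mice outside the dose cohort gave the residual events a separate reading. In gastrocnemius at 4 days, where 0.409% of events were called between HSALR PBS and FVB, 30 of the 36 residual events with a value were called in the same direction. In quadriceps at 4 days, with 0.557% called, 31 of 36 were. None of the 6 new events in gastrocnemius, or of the 4 with a value in quadriceps, was called there by limma (0 at an unadjusted p below 0.05), and there were 3 new events without FVB replicate 4 and 10 without EEV4-PMO replicate 2. EEV4-PMO at 15 mg/kg in quadriceps at 7 days, set against quadriceps FVB at 4 days, gave 0.105% of events called, among them 15 of the residual events and none of 4 new events (0 at an unadjusted p below 0.05).

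How much of the disease difference was left was measured on events chosen in other mice: those called in the same direction between HSALR PBS and FVB in both 4-day cohorts. Of 122 such events, 2 were left out because HSALR PBS differed from FVB by less than 0.1 at 7 days. In the other 120 events, of 51 genes, the median difference left was 27.0% (0% is the FVB mean and 100% the HSALR PBS mean). The 4 EEV4-PMO libraries gave 24.8%, 27.9%, 25.4% and 28.3%, and the 4 FVB libraries lay between -4.32% and 1.83%. The higher dose left 26.6% ± 1.77 and the 15 mg/kg dose 45.2% ± 5.49 (mean of library medians, SD, n = 4 each), without overlap (exact two-sided permutation p = 0.0286, the smallest that 4 against 4 libraries can give). The unconjugated PMO libraries lay between 101% and 105%. By event, 55 kept under 25% of the difference, 44 kept 25 to 50%, 20 kept 50 to 100% and 1 exceeded 100%. Of the 120, 29 were called against FVB.

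**Figure D1:**
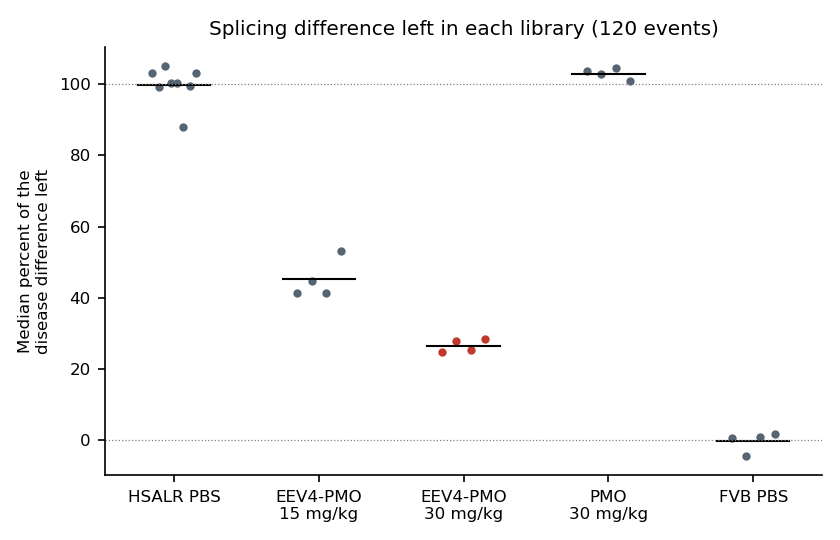
Median percent of the disease splicing difference left in each gastrocnemius library at 7 days, over 120 events chosen in other mice (y axis, percent, 0 = FVB mean and 100 = HSALR PBS mean). Points are libraries and bars are group means. Events also needed a disease difference of at least 0.1 at 7 days. The EEV4-PMO 30 mg/kg libraries lie between 24.8% and 28.3%, below all 4 libraries at 15 mg/kg and above all FVB libraries, and 1 HSALR PBS library lies at 87.9%.

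The residue was uneven between genes. Neb, which encodes the thin-filament ruler nebulin, kept a median 43.8% over 27 events, with 12 called against FVB, and Tnnt3, fast skeletal troponin T, kept 29.2% over 10 events, with 6 called. Ttn, the giant spring protein titin, kept 22.7% over 6 events, with 1 called. Outside Neb and Tnnt3, the median was 21.0% over 83 events, and 11 of those were called. By role, 51 sarcomere and Z-disc events kept 31.6%, 11 signalling and kinase events 25.2%, 5 events of splicing and transcription factors 21.0%, and 9 events of ion channel, calcium and T-tubule genes 10.5%. The other roles were thinly filled, with 4 events of cytoskeleton and membrane traffic genes at 33.2% and 1 of a metabolic enzyme at 86.1%, none of them called against FVB. By gene median, Sema6c (154%), Pkm (86.1%), Morf4l2 (69.9%) and Mlf1 (65.3%) kept the most, each on 1 event and none called against FVB. Trim55 kept 1.09%, Mapt 2.97% and Csnk1d -27.4%. These events share genes and libraries, so the medians are a description.

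**Figure D2:**
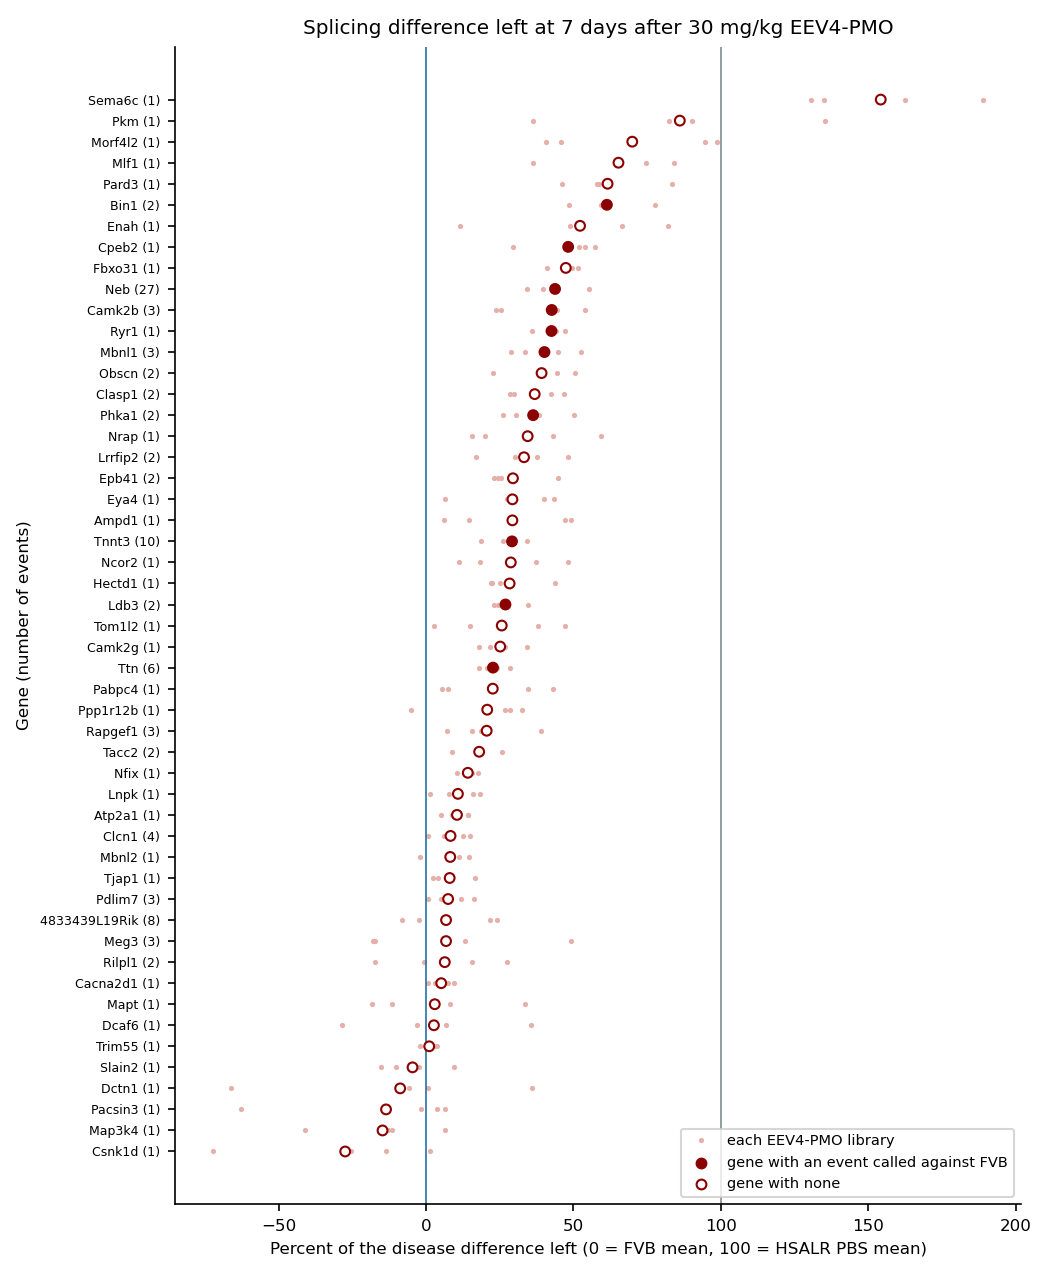
Percent of the disease splicing difference left after EEV4-PMO at 30 mg/kg (x axis) for each of 51 genes (y axis, number of events in brackets). Small points are the 4 EEV4-PMO libraries, large points the median over a gene's events, filled where at least 1 event was called against FVB. Filled points lie between 22.7% (Ttn) and 61.3% (Bin1), and open points lie on both sides of them.

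Skipped-exon events with an exon length that is a multiple of 3 kept a median 26.8% (64 events of 40 genes, 16 called). Those of other lengths kept 8.71% (13 events of 7 genes, none called by limma and 2 at an unadjusted p below 0.05). Events with the exon included more in HSALR PBS than in FVB kept 25.4% (46 events). Those with the exon included less kept 21.4% (31 events). Some exons enter in several events, so these are not counts of separate exons. In the authors' own table of 36 exons, 34 had a disease difference of at least 0.1 at 7 days. They kept a median 14.1%, 24 kept under 25% and 1 kept over 50%. PSI did not overlap between EEV4-PMO and FVB in 12 of the 36, beside 3.46% of all events tested.

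The largest residual PSI difference was in a sarcomere exon. The deposited table lists some exons in several events that differ in their flanking exons. Library values here are those of the called event with the largest difference from FVB, or of the event with the largest difference where none was called, and the other skipped-exon events of an exon are given where their disease difference was at least 0.1. The 12-base Tnnt3 exon (chr7:142505288-142505299) had a PSI of 0.428, 0.321, 0.411 and 0.364 in the EEV4-PMO libraries, a lowest, median and highest of 0.062, 0.127 and 0.631 in HSALR PBS and 0.882, 0.894, 0.795 and 0.828 in FVB. All EEV4-PMO libraries were below all FVB libraries. The difference was -0.469 (SE 0.080, limma adjusted p = 0.00908), and 70.1% of the disease difference was left. The highest HSALR PBS value is replicate 6, and without it 63.9% was left. Another event of this exon had a disease difference of the same sign but was higher after EEV4-PMO than in FVB, with mean PSI of 0.571 after EEV4-PMO, 0.350 in HSALR PBS and 0.453 in FVB (-115% left, adjusted p = 1.00). Counted as a choice between the 12-base and 39-base exons, the same Tnnt3 region had a PSI of 0.774, 0.676, 0.754 and 0.617 after EEV4-PMO, 0.007, 0.015 and 0.077 in HSALR PBS and 0.966, 0.973, 0.976 and 0.967 in FVB, with 27.97% left. The deposited table does not say which exon of such a pair is counted. The 39-base Tnnt3 exon (chr7:142507750-142507788), named after its values were seen, had a PSI of 0.157, 0.321, 0.274 and 0.374 after EEV4-PMO, 0.809, 0.902 and 0.931 in HSALR PBS and 0.046, 0.052, 0.046 and 0.078 in FVB. It lay near FVB in EEV4-PMO replicate 1 and further away in the other 3. The difference of 0.226 (limma adjusted p = 0.0103) was lost without EEV4-PMO replicate 2 or 4, with adjusted p up to 0.0572, and 27.0% was left. In 2 other events of this exon 22.5% was left (adjusted p = 0.00819) and 6.23% was left (adjusted p = 0.802, not called). Troponin T isoforms tune the calcium response of the thin filament.

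Nebulin exons ranged widely. Over the 27 Neb events chosen in other mice, between -10.3% and 79.0% of the disease difference was left, 10 kept at least 50%, and 15 were not called against FVB. The 105-base Neb exon (chr2:52161371-52161475) had a PSI of 0.849, 0.818, 0.808 and 0.787 after EEV4-PMO, 0.971, 0.988 and 0.993 in HSALR PBS and 0.505, 0.470, 0.555 and 0.561 in FVB. EEV4-PMO libraries were all above FVB and all below HSALR PBS: 63.2% was left (difference 0.293, SE 0.019, limma adjusted p = 1.35e-08). A second event of this exon kept 74.1%, a difference of 0.076 that is below the minimum of 0.1. A 111-base Neb exon (chr2:52165167-52165277) had 0.929, 0.945, 0.931 and 0.901, against 0.997, 0.998 and 1 in HSALR PBS and 0.631, 0.609, 0.700 and 0.687 in FVB, with 78.96% left (adjusted p = 3.40e-10). A 93-base Neb exon (chr2:52156355-52156447) had 0.023, 0.052, 0.018 and 0.111 after EEV4-PMO, 0.011, 0.039 and 0.071 in HSALR PBS and 0.287, 0.188, 0.135 and 0.324 in FVB, with 95.4% left and no overlap with FVB (adjusted p = 0.00605). It was called in 1 of 19 events tested for this exon, and 2 others kept 121% and 170% without a call (adjusted p = 0.0725 and 0.451). The last pair of exons was named after their values were seen. Outside the cohort, the 105-base exon had a mean PSI of 0.788 in quadriceps 7 days after EEV4-PMO at 15 mg/kg, 0.984 in quadriceps HSALR PBS and 0.488 in quadriceps FVB.

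Titin and the Z-disc protein Ldb3 were further along. The 303-base Ttn exon (chr2:76705670-76705972) had a PSI of 0.721, 0.655, 0.638 and 0.705 after EEV4-PMO, 0.961, 0.981 and 0.983 in HSALR PBS and 0.523, 0.477, 0.492 and 0.496 in FVB. All 3 groups were separate, with 38.03% left (difference 0.183, limma adjusted p = 1.82e-04). The 186-base Ldb3 exon (chr14:34555343-34555528) had a PSI of 0.265, 0.329, 0.264 and 0.293, against 0.721, 0.827 and 0.892 in HSALR PBS and 0.098, 0.076, 0.093 and 0.105 in FVB, with 26.8% left. No library overlapped, but the call was weak (difference 0.195, adjusted p = 0.0429): it was lost without any 1 of 14 of the 16 libraries, with adjusted p between 0.0243 and 0.134.

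Among calcium-handling genes, an exon of Ryr1 and an exon of Bin1 kept a difference. The 15-base exon of Ryr1, the calcium release channel of the sarcoplasmic reticulum (chr7:29056234-29056248), had a PSI of 0.290, 0.261, 0.256 and 0.244 after EEV4-PMO, 0, 0.027 and 0.046 in HSALR PBS and 0.425, 0.475, 0.435 and 0.414 in FVB. The EEV4-PMO values lay between the other groups without overlap, with 42.5% left (difference -0.174, SE 0.018, limma adjusted p = 1.93e-05). A 72-base exon of Bin1, which shapes T-tubules, had a PSI of 0.395, 0.453, 0.384 and 0.413, against 0.499, 0.511 and 0.560 in HSALR PBS and 0.268, 0.264, 0.270 and 0.284 in FVB. Here 56.2% was left (difference 0.140, adjusted p = 2.61e-04), and no library overlapped. A mutually exclusive pair of Bin1 exons kept 66.5% and was not called. By contrast, a 45-base Bin1 exon (chr18:32423242-32423286) in the authors' own table overlapped FVB, with 2.34% left. Its mean PSI was 0.980 after EEV4-PMO, 0.813 in HSALR PBS and 0.984 in FVB.

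Regulators of RNA were in the residue too. The 54-base exon of Mbnl1, which encodes the splicing factor held by the repeat (chr3:60614683-60614736), had a PSI of 0.368, 0.510, 0.403 and 0.463 after EEV4-PMO, 0.705, 0.776 and 0.876 in HSALR PBS and 0.204, 0.147, 0.215 and 0.225 in FVB. 40.2% was left (difference 0.238, SE 0.041, limma adjusted p = 0.00908). No library overlapped, though without FVB replicate 2 the adjusted p was 0.0529. A second event of the same Mbnl1 exon had a mean PSI of 0.173 after EEV4-PMO, 0.523 in HSALR PBS and 0.079 in FVB, with 21.0% left, and was not called (adjusted p = 0.321). In the authors' own table this exon kept 20.8%. The related Mbnl2 exon (chr14:120395712-120395765), whose sequence stands beside it above, had 0.146, 0.097, 0.130 and 0.136, against 0.225, 0.401 and 0.510 in HSALR PBS and 0.105, 0.074, 0.113 and 0.121 in FVB, and overlapped FVB (8.22% left, adjusted p = 1.00). Cpeb2 encodes a factor that binds messenger RNA tails and controls their translation. Its 24-base exon (chr5:43268869-43268892) had a PSI of 0.685, 0.504, 0.662 and 0.650 after EEV4-PMO, 0.928, 0.947 and 1 in HSALR PBS and 0.344, 0.264, 0.361 and 0.287 in FVB. Cpeb2 thus lay between the other groups, with 48.2% left and no overlap (difference 0.311, adjusted p = 1.83e-04). In quadriceps the means were 0.403 at 7 days after 15 mg/kg, 0.875 in HSALR PBS and 0.288 in FVB.

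Kinase genes kept a residue as well. The 177-base exon of Phka1, the muscle regulatory subunit of phosphorylase kinase (chrX:102557096-102557272), had a PSI of 0.399, 0.524, 0.509 and 0.475 after EEV4-PMO, 0.105, 0.118 and 0.147 in HSALR PBS and 0.658, 0.662, 0.588 and 0.689 in FVB, with 32.7% left and no overlap (difference -0.172, limma adjusted p = 0.00151). The 75-base exon of Camk2b, a calcium-dependent kinase (chr11:5987057-5987131), had 0.707, 0.688, 0.541 and 0.626, against 0.102, 0.135 and 0.226 in HSALR PBS and 0.836, 0.829, 0.751 and 0.750 in FVB, with 23.3% left, and in a second event of this exon -0.957% was left, not called. A 114-base Camk2b exon (chr11:5978399-5978512), named after its values were seen, kept 42.6%. Neither Camk2b call was firm (adjusted p = 0.0465 and 0.0393): each was lost without any 1 of at least 11 of the 16 libraries, with adjusted p up to 0.129 and 0.131.

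**Figure D3:**
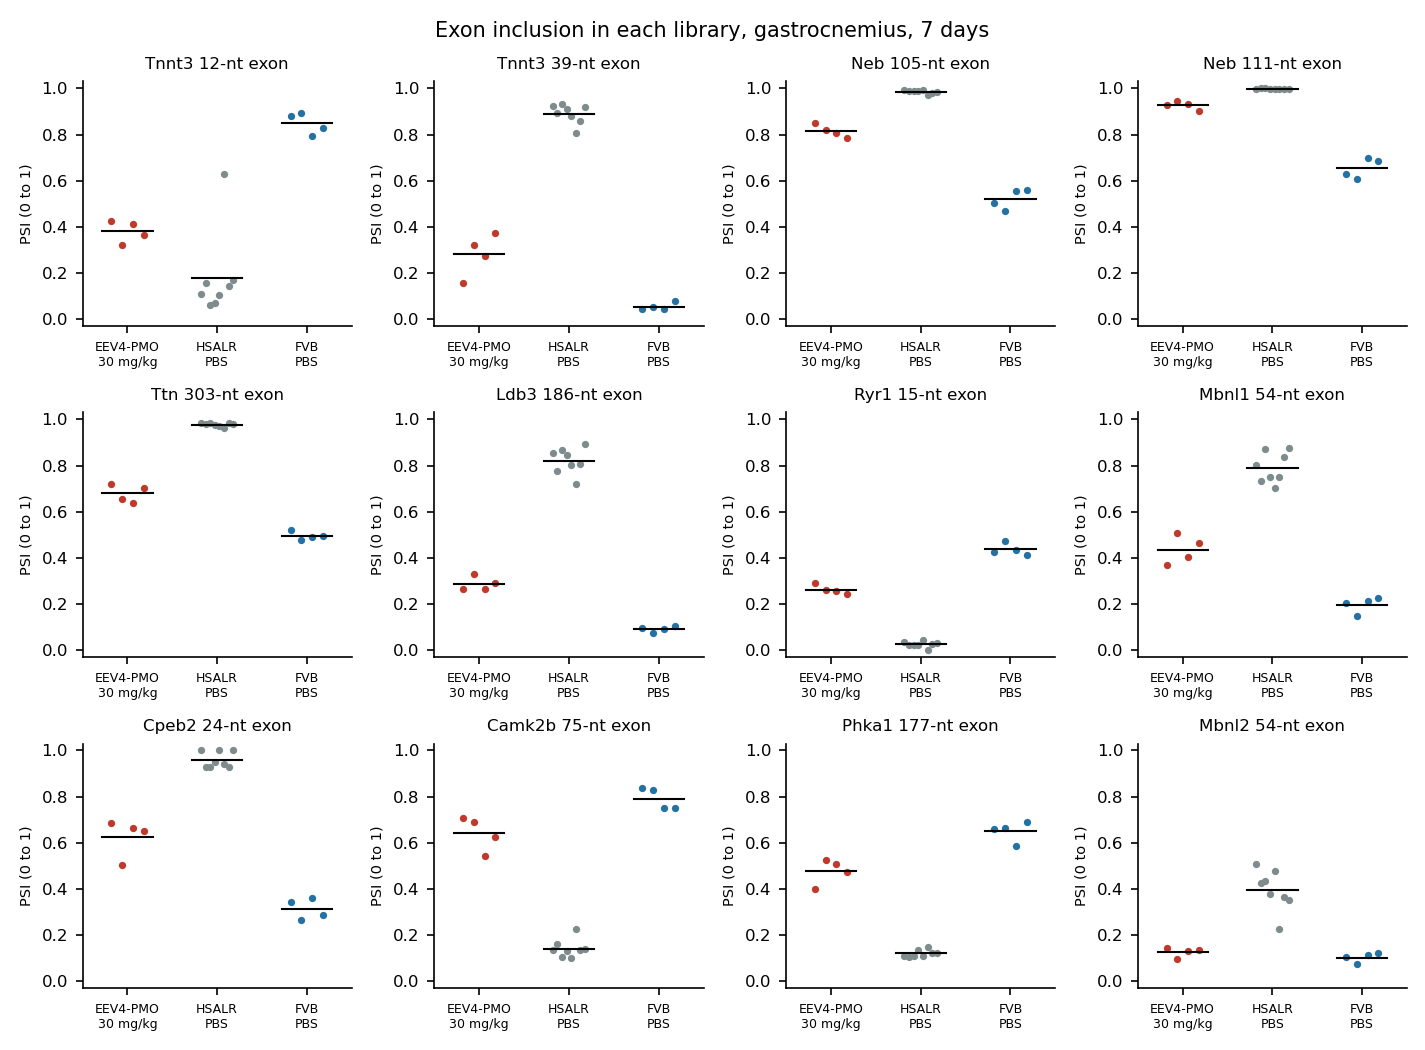
Percent spliced in (y axis, 0 to 1) of 12 exons in each gastrocnemius library at 7 days after EEV4-PMO at 30 mg/kg, in HSALR PBS and in FVB PBS. Points are libraries and bars are group means. In 11 exons the EEV4-PMO points are apart from FVB, whereas in Mbnl2 they overlap FVB, and 1 HSALR PBS library stands apart in the Tnnt3 12-base exon.

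Exons of several genes linked to myotonia and fibre maturity had come close to FVB. The 42-base exon of Atp2a1, the fast-muscle calcium pump (chr7:126446545-126446586), had a PSI of 0.957, 0.882, 0.927 and 0.883 after EEV4-PMO, 0.114, 0.172 and 0.356 in HSALR PBS and 0.996, 0.997, 0.997 and 0.998 in FVB. Its EEV4-PMO libraries were all below FVB, with 10.5% left, a difference of -0.085 that did not pass (limma adjusted p = 0.679). For the 79-base exon of Clcn1, the chloride channel that limits muscle excitability (chr6:42293444-42293522), the PSI was 0.391, 0.358, 0.212 and 0.225 after EEV4-PMO, 0.787, 0.857 and 0.958 in HSALR PBS and 0.138, 0.279, 0.227 and 0.164 in FVB. It overlapped FVB, with 14.3% left (adjusted p = 0.679). The 3 other events of this Clcn1 exon, 2 of them as pairs of mutually exclusive exons, kept 7.14%, 7.19% and 9.44%, and the authors' own table gives 7.38%. The 57-base exon of Cacna2d1, a calcium channel subunit (chr5:16322539-16322595), had 0.993, 0.968, 0.986 and 0.974, against 0.622, 0.704 and 0.870 in HSALR PBS and 0.991, 0.998, 0.998 and 0.994 in FVB, with 5.16% left (adjusted p = 1.00). Nfix encodes a transcription factor, and its 123-base exon (chr8:84723728-84723850) had 0.312, 0.335, 0.322 and 0.343, against 0.575, 0.723 and 0.776 in HSALR PBS and 0.255, 0.265, 0.281 and 0.260 in FVB. It kept 14.2% and did not overlap FVB, but did not pass (adjusted p = 0.679). The HSALR PBS value nearest FVB in Atp2a1 and Nfix is replicate 6, without which 10.2% and 13.6% was left in these exons.

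Some residual exons had the same PSI in both HSALR groups. The 102-base Hexdc exon (chr11:121221236-121221337) and the 185-base Wdsub1 exon (chr2:59876667-59876851) had a PSI of 1 in every EEV4-PMO and every HSALR PBS library. In FVB the Hexdc exon had 0.826, 0.733, 0.789 and 0.667 and the Wdsub1 exon 0.810, 0.870, 0.875 and 0.684. The 4-day gastrocnemius means were 0.978 in HSALR PBS and 0.904 in FVB for Hexdc, and 0.965 in HSALR PBS and 0.9 in FVB for Wdsub1, smaller differences that were not called. The Hexdc call (limma adjusted p = 0.0372) was lost without any 1 of 13 of the 16 libraries (adjusted p up to 0.118), and that of Wdsub1 (adjusted p = 3.01e-04) was not.

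The differences new with treatment were few and thin. A 152-base exon of Ftx, a noncoding RNA of the X inactivation region (chrX:103613044-103613195), had a PSI of 0.714, 0, 0.667 and 0.333 after EEV4-PMO and 1 in every HSALR PBS and FVB library (difference -0.572, SE 0.091, limma adjusted p = 0.00398). The EEV4-PMO values differ widely among themselves, and EEV4-PMO at 15 mg/kg gave 1 in every library. A 72-base exon of Mlip, a protein of the muscle nuclear envelope, in a mutually exclusive pair (chr9:77216977-77217048), had 0.346, 0.207, 0.284 and 0.359 after EEV4-PMO, 0, 0.107 and 0.160 in HSALR PBS and 0, 0.070, 0.064 and 0.054 in FVB (difference 0.252, adjusted p = 0.00242). All EEV4-PMO values were above both other groups, and the 15 mg/kg mean was 0.222 ± 0.0779 (SD, n = 4). Zfp568, a zinc finger gene, had an alternative splice site (chr7:30013840-30013889) with 0.538, 0.576, 0.675 and 0.618, against 0.835, 0.931 and 1 in HSALR PBS and 0.731, 0.951, 0.936 and 1 in FVB (difference -0.303, adjusted p = 0.01003, and 0.0512 without FVB replicate 2). Pigx, of the GPI anchor pathway, had a 214-base exon with 0.542, 0.805, 0.429 and 0.737 after EEV4-PMO, 0.765, 0.985 and 1 in HSALR PBS and 1, 0.939, 0.909 and 1 in FVB (adjusted p = 0.0382, lost without any 1 of 11 of the 16 libraries, up to 0.113). Bloc1s1, of lysosome-related traffic, had 0.254, 0.229, 0.205 and 0.207, against 0.301, 0.341 and 0.415 in HSALR PBS and 0.317, 0.378, 0.324 and 0.364 in FVB (difference -0.122, adjusted p = 0.0309, lost without any 1 of 5 libraries, up to 0.102). Reads behind each PSI are not given, so the precision of single values is unknown.

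More genes were called against FVB by transcript level than events by splicing. The rules differ, since events needed a PSI difference of at least 0.1 and genes had no minimum. Of 13885 genes, 1759 (12.7%) differed between EEV4-PMO at 30 mg/kg and FVB (limma on log2(TPM + 1), adjusted p below 0.05), 1240 higher (8.93%) and 519 lower (3.74%). HSALR PBS against FVB gave 2855 (20.6%), 1635 higher (11.8%) and 1220 lower (8.79%), and EEV4-PMO against HSALR PBS gave 2089 (15.0%). These comparisons share libraries as well, and again HSALR PBS has 8 libraries and EEV4-PMO 4. With 4 per group in gastrocnemius at 4 days, HSALR PBS against FVB called 1179 of 14280 genes. TPM did not overlap between the EEV4-PMO and FVB libraries in 22.2% of all genes and in 1579 of the 1759. The excess of higher genes moved with scaling: the median gene was 0.06 above FVB on the log2 scale, and with libraries rescaled by the median ratio 935 genes were higher and 855 lower (52.2% higher, against 70.5% as deposited). Single libraries mattered: 1105 genes were called without EEV4-PMO replicate 4, 1161 without FVB replicate 3 and 1153 without FVB replicate 4.

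Of the 1759 genes, 868 were residual, 571 higher and 297 lower, with HSALR PBS different from FVB in the same direction. The higher ones had a median log2 difference from FVB of 0.40 in HSALR PBS and 0.37 after EEV4-PMO. The lower ones had -0.45 in HSALR PBS and -0.47 after EEV4-PMO. Calls in these same libraries chose the residual genes, so these medians are a description. Another 45 lay further from FVB than in HSALR PBS, and 14 had crossed to the other side of FVB. New with treatment were 418 genes, 328 higher and 90 lower, with HSALR PBS within 0.25 of FVB on the log2 scale and not called. The remaining 414 could not be placed. After rescaling there were 941 residual genes, 715 of them the same genes, and 386 new genes, 280 of them the same, of which 200 were higher and 186 lower. In gastrocnemius at 4 days, with 8.26% of genes called between HSALR PBS and FVB, 346 of 867 residual genes were called in the same direction, and 369 of 853 in quadriceps at 4 days, with 13.7% called. The residual count was 573 without FVB replicate 3, and the new count was 245 without EEV4-PMO replicate 1 and 225 without replicate 4. Of 730 genes chosen in both 4-day cohorts, 354 were left out because HSALR PBS differed from FVB by less than 0.5 (log2) at 7 days. That limit uses the same 7-day libraries as the percent left. In the other 376 genes, a median 45.4% of the log2 difference was left, with 50.8%, 40.0%, 37.9% and 51.4% in the 4 EEV4-PMO libraries. Of these genes, 165 were called against FVB.

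After the transgene itself, Sln and Actc1 had the largest residual differences in transcript level. Sln, sarcolipin, which inhibits the calcium pump, had 1136, 1014, 734 and 1262 TPM in the EEV4-PMO libraries, 334, 755 and 875 TPM as lowest, median and highest in HSALR PBS, and 40.2, 50.1, 9.42 and 15.8 TPM in FVB. It stayed high in every treated library (log2 difference 5.37, SE 0.42, limma adjusted p = 4.40e-08), and EEV4-PMO and HSALR PBS overlapped. Uchl1, a ubiquitin hydrolase best known in neurons, had 32.5, 45.2, 31.1 and 30.9 TPM, against 27.6, 39.6 and 58.8 TPM in HSALR PBS and 3.61, 3.0997, 4.56 and 2.92 TPM in FVB (log2 difference 2.98, adjusted p = 3.69e-08). Actc1, cardiac actin, had 33.02, 67.8, 57.3 and 31.7 TPM after EEV4-PMO, 23.2, 29.8 and 109 TPM in HSALR PBS and 1468, 1154, 996 and 1707 TPM in FVB (log2 difference -4.83, adjusted p = 3.74e-08). FVB muscle held far more than either HSALR group, and the highest HSALR PBS value is replicate 6. Kcnab1, a potassium channel subunit, had 4.08, 6.96, 7.45 and 3.49 TPM, against 1.95, 2.41 and 3.01 TPM in HSALR PBS and 19.9, 17.1, 19.96 and 17.2 TPM in FVB: EEV4-PMO lay between, without overlap (log2 difference -1.64, adjusted p = 8.92e-06).

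Low-level genes were in the residue too. Aldh3a1, an aldehyde dehydrogenase, had 16.7, 6.48, 2.72 and 15.8 TPM after EEV4-PMO, 1.22, 2.73 and 7.15 TPM in HSALR PBS and 0.06705, 0.136, 0.0614 and 0.123 TPM in FVB (log2 difference 3.12, limma adjusted p = 4.47e-04). Myo1a, an unconventional myosin, had 5.01, 9.73, 8.74 and 7.16 TPM, against 6.15, 11.7 and 23.4 TPM in HSALR PBS and 0.0896, 0.224, 0.438 and 0.211 TPM in FVB (log2 difference 2.78, adjusted p = 1.02e-05). At these levels the added 1 TPM shrinks the log2 difference. Egr1, an immediate early transcription factor, was lower, with 14.6, 9.52, 5.91 and 4.82 TPM after EEV4-PMO, 6.94, 11.7 and 17.1 TPM in HSALR PBS and 45.5, 46.02, 43.4 and 18.9 TPM in FVB (log2 difference -2.05, adjusted p = 0.00121), and FVB replicate 4 was the low one among FVB. Of 18 immediate early genes, 3 were higher and 4 lower than FVB after EEV4-PMO (2 and 5 after rescaling). In HSALR PBS 4 were higher and 4 lower. The shares over all genes were 8.93% higher and 3.74% lower after EEV4-PMO, and 11.8% and 8.79% in HSALR PBS.

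A few denervation and p53 genes were still higher than FVB. Over all genes, 8.93% were higher and 3.74% lower after EEV4-PMO, and 11.8% higher and 8.79% lower in HSALR PBS. Of 13 denervation and synapse genes, 3 were higher than FVB after EEV4-PMO and none lower, and in HSALR PBS 5 were higher, with list medians of 0.24 after EEV4-PMO and 0.03 in HSALR PBS on the log2 scale. Musk, a muscle kinase that organises the synapse with the motor nerve, had 63.7, 88.6, 74.4 and 81.9 TPM, against 47.3, 82.8 and 102 TPM in HSALR PBS and 30.5, 25.6, 40.7 and 46.1 TPM in FVB (log2 difference 1.12, limma adjusted p = 0.00157). Of 13 p53 response genes, 3 were higher after EEV4-PMO and none lower, and in HSALR PBS 6 were higher and 2 lower. The list median was 0.02 as deposited and -0.03 after rescaling, where 1 was also lower. Eda2r, of the TNF receptor family, had 12.9, 21.9, 19.7 and 24.001 TPM after EEV4-PMO, 55.2, 68.8 and 82.1 TPM in HSALR PBS and 6.63, 6.33, 6.22 and 7.24 TPM in FVB. Its residue was 1.41 against 3.17 in HSALR PBS on the log2 scale (limma adjusted p = 9.04e-06). Trp53inp1, which takes part in autophagy and cell death, lay further from FVB than in HSALR PBS, with 16.3, 17.7, 17.7 and 21.03 TPM after EEV4-PMO, 9.62, 13.1 and 14.5 TPM in HSALR PBS and 9.34, 10.3, 9.37 and 8.77 TPM in FVB (log2 difference 0.87, adjusted p = 1.88e-04). Phlda3, an inhibitor of Akt signalling, had 80.6, 72.01, 70.96 and 86.4 TPM, against 90.7, 109.5 and 128 TPM in HSALR PBS and 41.7, 26.3, 32.3 and 24.9 TPM in FVB (log2 difference 1.31, adjusted p = 3.46e-06).

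Some fast fibre genes were still lower. Over all genes, 3.74% were lower and 8.93% higher after EEV4-PMO, and 8.79% lower and 11.8% higher in HSALR PBS. Of 20 fast glycolytic genes, 7 were lower than FVB after EEV4-PMO and none higher, and 13 were lower and 1 higher in HSALR PBS. The list medians were -0.23 after EEV4-PMO and -0.34 in HSALR PBS, beside a median of 0.06 over all genes after EEV4-PMO. Tnnc2, fast troponin C, had 9618, 11743, 10958 and 9201 TPM after EEV4-PMO, 10196, 11277 and 13401 TPM in HSALR PBS and 17260.5, 16836, 17109.9 and 17737 TPM in FVB. The treated libraries were all below FVB (log2 difference -0.74, limma adjusted p = 4.51e-05). The Tnnt3 transcript itself differed by -0.41 (adjusted p = 0.00519). Of 20 sarcomere genes, 7 were higher and 1 lower after EEV4-PMO (4 higher and 2 lower after rescaling), and 8 were higher and 4 lower in HSALR PBS. Among them Lmod2, a thin-filament nucleator, had 386, 216, 241 and 324 TPM after EEV4-PMO, 284, 332 and 366 TPM in HSALR PBS and 189, 133, 107 and 152 TPM in FVB (log2 difference 0.99, adjusted p = 0.00576), so the HSALR groups overlapped and both lay above FVB. Tcap, telethonin of the Z-disc, had 4075, 3829, 3776 and 3576 TPM, against 2753, 3131 and 3676 TPM in HSALR PBS and 2335, 2714, 2283 and 2261 TPM in FVB (log2 difference 0.67, adjusted p = 2.11e-04). The Mbnl1 transcript had 269, 265, 265 and 300.3 TPM after EEV4-PMO, 224, 253 and 283 TPM in HSALR PBS and 221, 212, 218 and 208 TPM in FVB (log2 difference 0.35, adjusted p = 0.00206).

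Endothelial markers were lower in both HSALR groups. Over all genes, 3.74% were lower after EEV4-PMO and 8.79% in HSALR PBS. Of the 13 endothelial markers, 7 were lower than FVB after EEV4-PMO and none higher (8 lower after rescaling), and 10 were lower in HSALR PBS. Their summed level was 335 to 384 TPM in the EEV4-PMO libraries, 289 to 407 TPM in HSALR PBS and 465 to 528 TPM in FVB, so the HSALR groups overlapped each other and FVB was apart. Cldn5, a tight junction protein of vessels, had 9.15, 8.68, 10.3 and 9.41 TPM, against 7.81, 10.7 and 15.1 TPM in HSALR PBS and 31.4, 24.4, 25.01 and 18.04 TPM in FVB (log2 difference -1.29, limma adjusted p = 7.80e-05). Egfl7, secreted by endothelium, had 58.1, 60.03, 69.5 and 59.2 TPM, against 50.04, 72.7 and 92.9 TPM in HSALR PBS and 121, 116, 134 and 113 TPM in FVB (log2 difference -0.96, adjusted p = 0.00219). In bulk muscle, fewer cells of a type and less RNA per cell cannot be told apart. Smooth muscle and pericyte markers summed to 485 to 543 TPM in the EEV4-PMO libraries, 458 to 532 TPM in HSALR PBS and 543 to 591 TPM in FVB. Of the 11 tested, 2 were lower, or 6 after rescaling. Schwann cell markers gave no limma call after EEV4-PMO as deposited (1 at an unadjusted p below 0.05, and 1 called lower after rescaling), with sums of 159 to 518 TPM in the EEV4-PMO libraries, 124 to 513 TPM in HSALR PBS and 341 to 741 TPM in FVB. Macrophage markers summed to 95.3 to 162 TPM in the EEV4-PMO libraries, 63.9 to 171 TPM in HSALR PBS and 56.9 to 92.9 TPM in FVB. After EEV4-PMO 1 of 14 was called higher, near the 8.93% of all genes. The macrophage list median was 0.55 after EEV4-PMO and 0.31 in HSALR PBS on the log2 scale, beside 0.06 over all genes after EEV4-PMO. At an unadjusted limma p below 0.05 there were 7 of the 14, and 3760 of all 13885 genes. None of 5 class II antigen presentation genes was called by limma (3 at an unadjusted p below 0.05), with a median of 0.60. Whether cell makeup has a part in other differences was not tested.

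Some disease lists held fewer calls after EEV4-PMO, a group with fewer libraries than HSALR PBS. Of 14 load and injury responsive genes, 2 were higher after EEV4-PMO (Sln and Uchl1) and 13 in HSALR PBS. Over all genes, 8.93% were higher after EEV4-PMO and 11.8% in HSALR PBS. The load and injury list had medians of 0.31 after EEV4-PMO and 1.68 in HSALR PBS on the log2 scale. Ankrd1, a stretch-responsive sarcomere protein, had 17.7, 14.3, 14.02 and 14.03 TPM after EEV4-PMO, 22.3, 56.2 and 107 TPM in HSALR PBS and 6.29, 3.74, 2.47 and 5.71 TPM in FVB. It did not overlap FVB, yet did not pass (log2 difference 1.58, limma adjusted p = 0.112). The imprinted noncoding RNA Meg3 had 37.3, 36.7, 46.02 and 42.3 TPM, against 128, 134 and 203 TPM in HSALR PBS and 50.9, 57.5, 59.2 and 46.04 TPM in FVB (log2 difference -0.39, adjusted p = 0.0942). Its neighbour Rian had 17.4, 14.7, 20.2 and 21.6 TPM after EEV4-PMO, 87.7, 111 and 141 TPM in HSALR PBS and 24.97, 23.8, 18.7 and 16.02 TPM in FVB (log2 difference -0.16, adjusted p = 0.646), where EEV4-PMO and FVB overlapped and HSALR PBS was apart. None of 7 imprinted RNAs was called after EEV4-PMO as deposited (1 lower after rescaling), against 3 higher and 1 lower in HSALR PBS. None of 10 heat shock genes was called after EEV4-PMO, against 4 higher in HSALR PBS. At an unadjusted limma p below 0.05 there were 1 imprinted RNA and 0 heat shock genes after EEV4-PMO.

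The 45 genes further from FVB than in HSALR PBS included clock and metabolic genes, 38 higher and 7 lower, and 28 were left without EEV4-PMO replicate 2. Per2, a core repressor of the circadian clock, had 18.3, 22.8, 22.8 and 15.2 TPM after EEV4-PMO, 9.79, 12.6 and 17.1 TPM in HSALR PBS and 3.88, 7.04, 4.04 and 4.74 TPM in FVB (log2 difference 1.82 to FVB, limma adjusted p = 1.75e-06, and 0.57 to HSALR PBS, adjusted p = 0.0157). Of 13 core clock genes, 7 were higher and 3 lower than FVB after EEV4-PMO, and 4 higher and none lower in HSALR PBS. The shares over all genes were 8.93% higher and 3.74% lower after EEV4-PMO, and 11.8% and 8.79% in HSALR PBS. Nr1d1, a clock repressor counted as new, had 116, 87.5, 106 and 83.8 TPM, against 130.2, 186 and 206 TPM in HSALR PBS and 171, 172, 172 and 156 TPM in FVB (log2 difference -0.78, adjusted p = 3.30e-04). Arntl, the clock activator, had 6.06, 3.204, 4.07 and 8.52 TPM after EEV4-PMO, 6.27, 8.64 and 11.7 TPM in HSALR PBS and 13.3, 8.99, 14.5 and 15.2 TPM in FVB (log2 difference -1.16, adjusted p = 0.0122). The hour of tissue collection is not given in the labels, and its part was not tested. Glul, glutamine synthetase, had 573, 552, 465 and 736 TPM, against 252, 318 and 371 TPM in HSALR PBS and 176, 207, 144 and 157 TPM in FVB, with no overlap of the 3 groups (log2 difference 1.76, adjusted p = 3.88e-05). Mid1ip1, which promotes fatty acid synthesis, had 74.98, 71.5, 80.1 and 74.5 TPM, against 33.6, 42.8 and 53.1 TPM in HSALR PBS and 17.8, 20.1, 23.1 and 24.5 TPM in FVB (log2 difference 1.78, adjusted p = 3.69e-08). Noct, a rhythmic NADPH phosphatase, had 49.1, 52.9, 43.1 and 55.9 TPM after EEV4-PMO, 26.7, 30.8 and 35.5 TPM in HSALR PBS and 14.4, 13.6, 15.7 and 19.6 TPM in FVB. Egr3, an immediate early factor, was lower, with 0.849, 0.692, 0.789 and 0.633 TPM after EEV4-PMO, 0.664, 1.64 and 3.92 TPM in HSALR PBS and 5.99, 5.98, 6.24 and 3.52 TPM in FVB (log2 difference -1.86, adjusted p = 6.39e-05), and the low FVB value is replicate 4.

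In 14 genes the treated level lay on the other side of FVB, or 7 to 9 without FVB replicate 1, 2, 3 or 4 or EEV4-PMO replicate 4. Klhl30, a kelch protein of muscle, had 35.4, 32.2, 28.7 and 37.3 TPM after EEV4-PMO, 69.9, 82.5 and 101 TPM in HSALR PBS and 60.2, 59.5, 52.5 and 46.5 TPM in FVB (log2 difference -0.69 to FVB, limma adjusted p = 0.0104, against 0.61 in HSALR PBS). Fxyd1, phospholemman, a regulator of the sodium pump, had 578, 546, 578 and 556 TPM, against 787, 802 and 878 TPM in HSALR PBS and 696, 669, 655 and 691 TPM in FVB (log2 difference -0.26, adjusted p = 0.00277). Tnik, a kinase, had 31.1, 30.7, 28.998 and 26.2 TPM after EEV4-PMO, 41.4, 44.9 and 50.4 TPM in HSALR PBS and 43.002, 40.8, 37.5 and 38.7 TPM in FVB (log2 difference -0.44, adjusted p = 5.04e-04). In all 3 genes the EEV4-PMO libraries were below every FVB library. The Phka1 transcript, whose exon was described above, lay above FVB on average and overlapped it, with 375, 456, 429.7 and 438 TPM, against 295, 298 and 345 TPM in HSALR PBS and 325, 346, 375 and 379.8 TPM in FVB (log2 difference 0.25, adjusted p = 0.0309). The Phka1 call was lost after rescaling, and without any 1 of 5 libraries. After rescaling 12 genes had crossed FVB, 5 of them the same.

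Genes new with treatment included developmental myosins. Myh3, embryonic myosin heavy chain, had 27.5, 12.6, 42.9 and 30.3 TPM after EEV4-PMO, 1.03, 2.65 and 4.7002 TPM in HSALR PBS and 4.54, 3.99, 1.92 and 2.39 TPM in FVB (log2 difference 2.73, SE 0.44, limma adjusted p = 3.72e-04). Myl4, embryonic myosin light chain, had 44.96, 21.5, 41.4 and 41.7 TPM, against 9.54, 11.9 and 19.4 TPM in HSALR PBS and 10.99, 13.3, 11.2 and 10.8 TPM in FVB (log2 difference 1.56, adjusted p = 5.21e-04). Every EEV4-PMO library was above every HSALR PBS and FVB library for both. Myh8, the perinatal myosin, differed by 1.17 and did not pass (adjusted p = 0.0614). Of 11 embryonic and regenerating fibre genes, 3 were higher and 1 lower (Actc1) after EEV4-PMO, and 4 were higher and 1 lower in HSALR PBS. Of the calls after EEV4-PMO, 2 were new and 2 residual. Satellite cell markers gave 1 lower of 9, beside 3.74% of all genes, with sums of 124 to 148 TPM in the EEV4-PMO libraries, 123 to 169 TPM in HSALR PBS and 139 to 147 TPM in FVB. Txlnb, a taxilin of muscle, had 504, 468, 576 and 512 TPM after EEV4-PMO, 225, 242 and 257 TPM in HSALR PBS and 262, 252, 250.5 and 275 TPM in FVB (log2 difference 0.98, adjusted p = 3.46e-06). Inmt, an amine methyltransferase, had 27.6, 10.4, 11.3 and 21.7 TPM, against 0.444, 4.68 and 6.94 TPM in HSALR PBS and 2.71, 2.9004, 5.39 and 2.704 TPM in FVB (log2 difference 2.01, adjusted p = 0.00319). Auts2, a nuclear protein that regulates transcription, was lower, with 5.79, 6.73, 6.36 and 5.07 TPM after EEV4-PMO, 9.88, 12.3 and 14.02 TPM in HSALR PBS and 12.6, 15.4, 16.04 and 12.6 TPM in FVB (log2 difference -1.12, adjusted p = 7.27e-07).

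**Figure D4:**
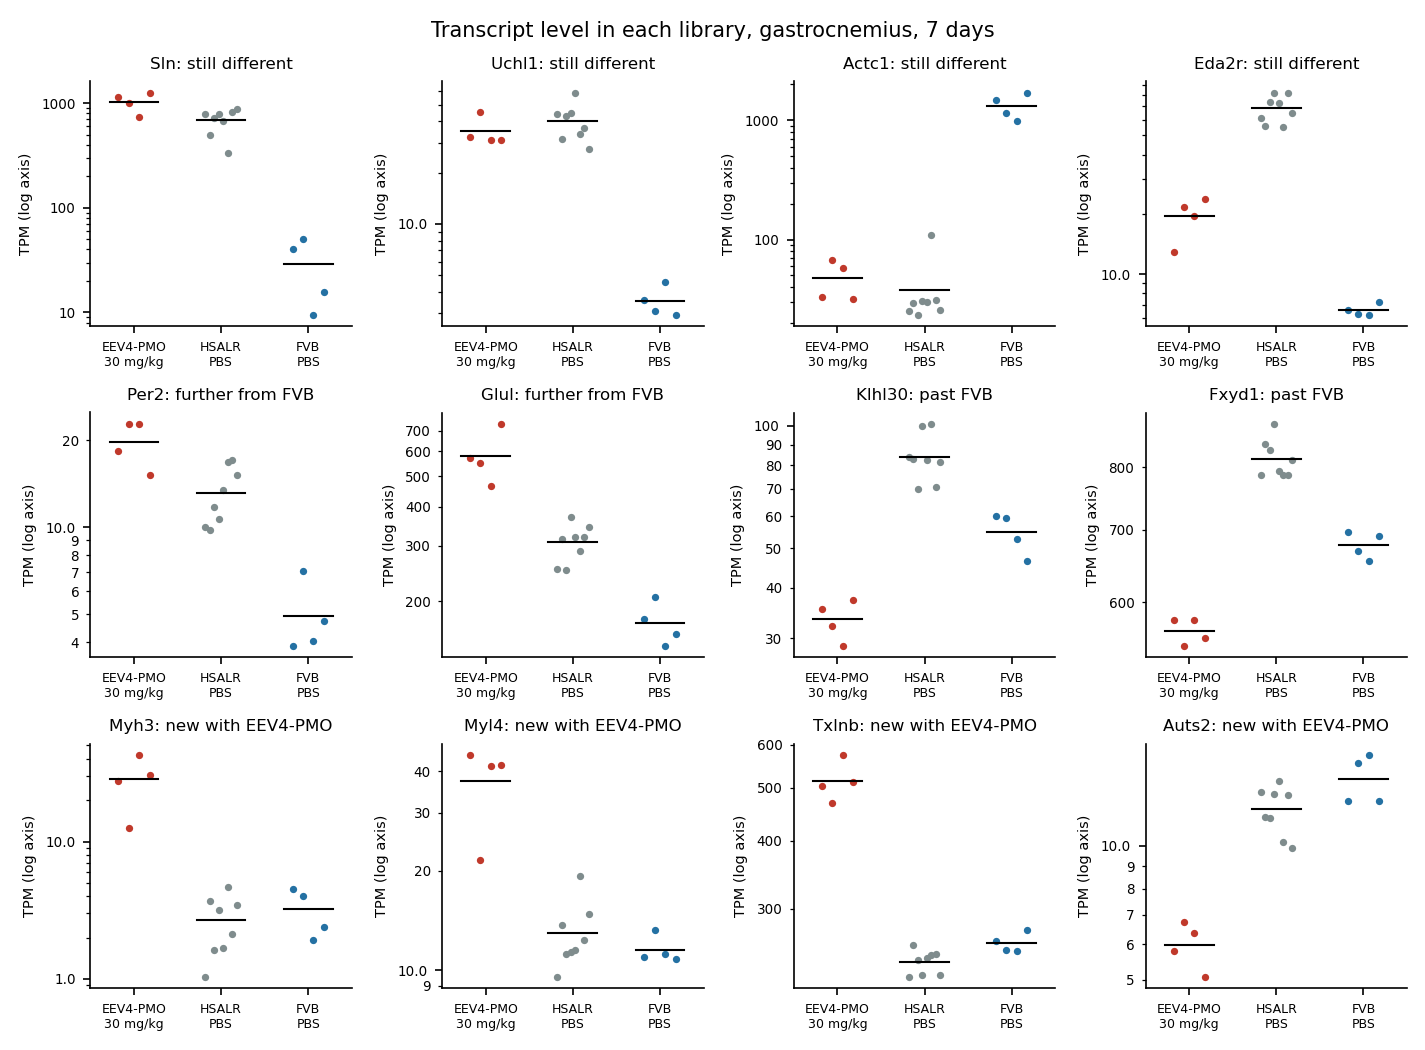
Transcript level (y axis, TPM, log axis) of 12 genes in each gastrocnemius library at 7 days after EEV4-PMO at 30 mg/kg, in HSALR PBS and in FVB PBS. Points are libraries and bars are group means, and titles give the kind of difference from FVB. Sln stays high after EEV4-PMO, at 734 to 1262 TPM, whereas Myh3 is high after EEV4-PMO alone, at 12.6 to 42.9 TPM.

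Glucocorticoid-responsive genes had the highest share called above FVB among the 31 gene lists, as deposited and after rescaling. Of 10 such genes and metallothioneins, 7 were higher after EEV4-PMO and none lower, and 4 were higher in HSALR PBS, with medians of 0.83 after EEV4-PMO and 0.34 in HSALR PBS on the log2 scale. Their sum was 1279 to 1700.4 TPM in the EEV4-PMO libraries, 944 to 1126 TPM in HSALR PBS and 782 to 1060.5 TPM in FVB. Tsc22d3, a glucocorticoid-induced leucine zipper protein, had 389, 416, 350.4 and 486 TPM, against 227, 247 and 283 TPM in HSALR PBS and 180.1, 234, 214 and 223 TPM in FVB (log2 difference 0.94, limma adjusted p = 9.03e-06). Ddit4, an inhibitor of mTOR signalling, had 88.4, 58.04, 39.5 and 90.9 TPM after EEV4-PMO, 21.2, 29.7 and 44.8 TPM in HSALR PBS and 23.9, 21.8, 23.01 and 36.8 TPM in FVB (log2 difference 1.31, adjusted p = 0.00613), and the highest FVB value is replicate 4. Bnip3, of mitochondrial turnover, had 256, 219.8, 248 and 299 TPM, against 178, 192 and 205 TPM in HSALR PBS and 184, 172, 177 and 184 TPM in FVB (log2 difference 0.50, adjusted p = 9.47e-04). Of 13 atrophy genes, 3 were higher and 1 lower, with none called in HSALR PBS by limma (1 at an unadjusted p below 0.05). No interferon response gene of 11 was called against FVB by limma (0 at an unadjusted p below 0.05), and 1 of 5 acute phase and cytokine genes was higher, as in HSALR PBS. Over all genes, 8.93% were higher after EEV4-PMO and 11.8% in HSALR PBS.

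Group means at 15 mg/kg and after the unconjugated PMO were not compared in choosing the new genes. Libraries of these groups did enter the shared spread and the filter on mean TPM. The 328 new genes that were higher had a median log2 difference from FVB of 0.34 after EEV4-PMO at 30 mg/kg, 0.29 at 15 mg/kg, 0.09 after the unconjugated PMO and 0.04 in HSALR PBS. The 90 lower genes had -0.38, -0.30, -0.07 and -0.03 in the same groups. All these values share the FVB libraries. In quadriceps, which shares no library, EEV4-PMO at 15 mg/kg at 7 days against FVB at 4 days called 12.9% of genes, 6.87% higher and 6.07% lower. Of the new genes, 65 of 320 higher ones were called higher there and 35 of 90 lower ones lower. Day, dose and muscle differ between these comparisons.

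**Figure D5:**
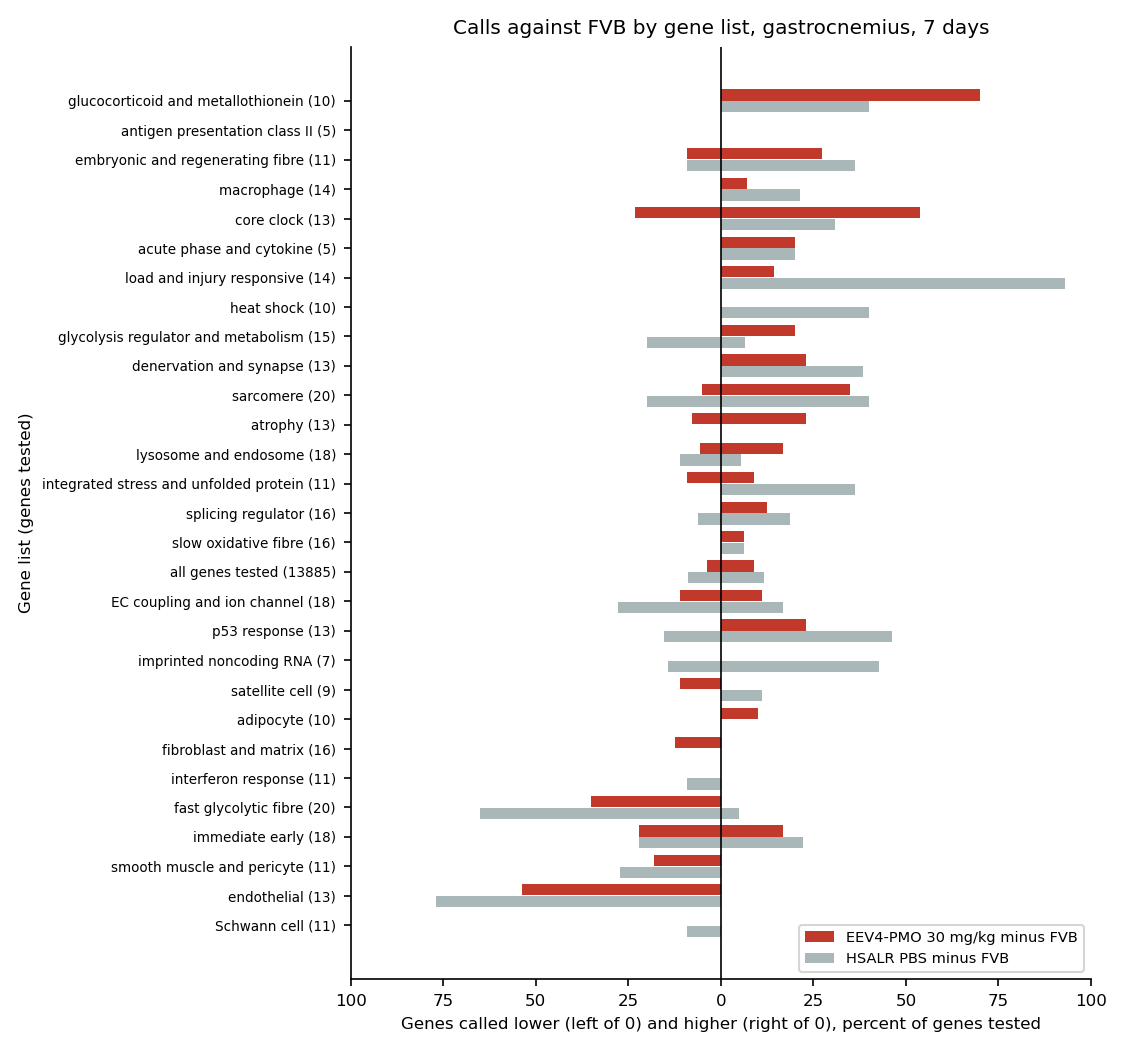
Genes called lower (left of 0) and higher (right of 0) than FVB, as percent of the genes tested (x axis), by gene list (y axis, genes tested in brackets, all 13885 tested genes as a row), after EEV4-PMO at 30 mg/kg and in HSALR PBS. The lymphocyte, neutrophil and red blood cell lists, with 2, 3 and 3 genes tested, are not drawn. Load and injury responsive genes have 2 of 14 higher after EEV4-PMO and 13 of 14 in HSALR PBS, whereas glucocorticoid genes have 7 of 10 higher after EEV4-PMO.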

How the data were processed

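Libraries were made from rRNA-depleted total RNA with strand information kept, per the labels' protocols. The submitters' processing notes list cutadapt, STAR, kallisto and the mouse builds GRCm38 and mm10, with no role or version for each. The authors deposited a transcript level per gene in TPM (scaled so that every library has the same total) for 24526 genes (2 entries lacking a TPM in some libraries were left out). They also deposited, for 117460 splicing events in rMATS form, the inclusion level as a fraction from 0 to 1 (PSI). Event starts were 0-based and are given 1-based. Read counts were not used here, so depth is unknown. No column of sample values was left unused (0).

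Samples were grouped by their titles. limma 3.58.1 in R 4.3.3, with a variance trend and Benjamini-Hochberg adjustment over the whole table, was fitted to the 24 gastrocnemius libraries of the dose cohort: PSI for 46521 events measured in all of these libraries and not constant, and log2(TPM + 1) for 13885 genes with a mean TPM of at least 1. Calls needed an adjusted p below 0.05 and, for events, a mean difference of at least 0.1. The 4-day and quadriceps libraries were fitted in the same way, and 12 comparisons were made in all. A log2 difference on this scale understates the change of low genes. Single values were tested by exact permutation over libraries. The fits were tested on simulated data first.

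Named by rule were, for each kind of difference, the 10 genes with the largest event difference and the 8 genes highest and 8 lowest by level (5 where a difference could not be placed), with 2 to 4 examples per gene list. Exons and genes named outside that rule are marked in the text. The comparison, the gene lists and the exon lists were chosen with earlier results of these data known. Library pairs were checked for duplicates, and 0 of 120 pairs had equal TPM for every gene. Alternatives were a logit scale, a minimum PSI difference of 0.2, events with a value in at least 3 libraries per group, the compared libraries alone, no variance trend, a replicate block, other limits for new differences, a pseudocount of 0.1, other filters on TPM, rescaling by the median ratio, and leaving out each library. 1 gene that the naming rule selects is not reported here.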

Additional observations from a re-analysis of the deposited data

Results flagged for a closer look

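Of 212 sets of 4 or 8 libraries, 22 held a highest or lowest library far from its neighbours. At a level where chance flags about 1 in 20 groups, 10.6 would be flagged. The sets share libraries, and no explanation was tested.

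HSALR PBS replicate 6 was set apart most often. Its PSI was 0.631 for the 12-base Tnnt3 exon (median of the 8 HSALR PBS libraries 0.127), 0.961 for the 303-base Ttn exon (0.981), 0.356 for the Atp2a1 exon (0.172) and 0.575 for the Nfix exon (0.723). It had 109 TPM of Actc1 (median 29.8), 345 TPM of Phka1 (297.9) and 130.2 TPM of Nr1d1 (186), and its median percent of the disease splicing difference was 87.9% (100.3%). HSALR PBS replicate 4 had a PSI of 0.765 for the Pigx exon and 203 TPM of Meg3.

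Among EEV4-PMO 30 mg/kg libraries, replicate 1 had 17.7 TPM of Ankrd1, replicate 2 had 45.2 TPM of Uchl1 and 21.5 TPM of Myl4, replicate 3 had 69.5 TPM of Egfl7, and replicate 4 had 300.3 TPM of Mbnl1.

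Among FVB libraries, replicate 2 had 13.3 TPM of Myl4 and 2714 TPM of Tcap, and replicate 3 had 5.39 TPM of Inmt. FVB replicate 4 had 18.9 TPM of Egr1, 3.52 TPM of Egr3, 36.8 TPM of Ddit4 and 156 TPM of Nr1d1.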

How the results depend on the processing

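No called result reversed under the alternatives run. After rescaling, the list median of EEV4-PMO against FVB changed sign in 3 lists whose medians lay near 0 on the log2 scale: p53 response (0.02 as deposited, -0.03), imprinted RNAs (0.00032, -0.06) and excitation-contraction coupling genes (0.05, -0.01). The 58 events (39 residual, 6 new) became 28 (19 residual) at a minimum PSI difference of 0.2, where fewer events can pass by construction, 0 with the compared groups alone (limma, 2559 with an unadjusted p below 0.05), 89 with no variance trend and 43 on a logit scale, and the cause of the last 3 changes was not tested. Leaving out 1 library gave 41 to 64 events, 33 to 43 residual and 3 to 10 new, and 1105 to 1882 genes, 573 to 948 residual and 225 to 482 new. Other settings gave 1569 to 1995 genes, against 1759. The median difference left in events was 24.8% with events chosen in gastrocnemius alone and 25.2% to 27.8% without 1 EEV4-PMO or FVB library. For genes it was 43.2% to 47.7% without 1 library. Replicate numbers did not pair the libraries: deviations of same-numbered EEV4-PMO and FVB libraries correlated at -0.0949 to 0.124. With the replicate number as a block, 54 events and 1868 genes were called, 689 of them residual and 559 new. Of 28 named and called events 14 were called without each library in turn, and of 108 named and called genes 68 were. Reads per event and per gene are not known, so small PSI differences and low TPM values carry an error that cannot be given.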

Other observations

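Of 632 entries for microRNAs and small nucleolar, Cajal body and spliceosomal RNAs tested, 23 were called between EEV4-PMO at 30 mg/kg and FVB, 11 of them residual and 4 new with treatment. Over all 13885 genes tested, 1759 (12.7%) were called, 868 residual and 418 new, so these entries were called less often than genes at large.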
